A study of Mus musculus with 7 samples.

Results

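A set of 10 genes that govern how the heart takes up, stores and releases fatty acids was compared between sham-operated and infarcted mouse hearts. They were chosen by name as lipoprotein lipase, the proteins that control it, and the lipid uptake and lipid droplet genes around it, and are 10 of the 56980 genes in the table. They comprise the inhibitor Angptl4, the enzyme Lpl, its partners Gpihbp1 and Lmf1, the uptake proteins Cd36 and Vldlr, the droplet coat proteins Plin2 and Plin5, and the intracellular lipases Pnpla2 and Lipe. Total RNA was sequenced from myocardial tissue of 7 male C57BL/6J mice of wild-type genotype, obtained at 8 weeks of age. In 3 mice the left coronary artery had been ligated (MI mice), and 4 mice had undergone the operation without ligation (sham-operated mice). Tissue was collected 4 days after surgery, each mouse gave 1 library, and the study calls the tissue of the MI mice ischemic without stating how the piece was cut from the heart. All 10 genes were among the 11431 that were tested, which had at least 1 FPKM (a fragment count corrected for gene length and library depth) in at least 3 mice.

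Lipoprotein lipase releases fatty acids from the triglycerides of circulating lipoproteins, and the heart is among the tissues richest in it. The enzyme matures in the endoplasmic reticulum of muscle and fat cells with the help of Lmf1, and Gpihbp1 carries it across the capillary endothelium and anchors it on the luminal side. Angptl4 is a secreted protein that inactivates the enzyme, and its gene is a known target of the PPAR receptors and of the hypoxia-inducible factors. Fatty acids that enter the cell are burned or stored in lipid droplets, whose coat of perilipins limits access of the lipases.

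The libraries held 19977713 to 23610870 fragments, and replicate 2 of the MI mice stood apart from the other 2. Over all tested genes it lay outside the range of the sham-operated mice for 50.6%, against 88.3% in MI replicate 1 and 85.7% in MI replicate 3. The summed FPKM of 12 cardiomyocyte markers was 17275 to 18651 in the sham-operated mice, so the tissue carried the defining genes of heart muscle, and it was 11093, 17110 and 12082 in MI replicates 1 to 3. The summed level of 12 macrophage markers was 207 to 260 in the sham-operated mice and 1347, 251 and 1156 in the MI mice. The 10 fibroblast markers summed to 157 to 186 in the sham-operated mice and to 2662, 282 and 2093 in the MI mice. Mitochondrial genes held 26.5% to 27.4% of the fragments of the sham-operated mice and 13.6% to 28.2% of those of the MI mice. Fewer cells of a type and less RNA per cell cannot be told apart in such tissue, and for each of the 10 genes the difference is given with and without MI replicate 2.

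With all 7 mice, 0 of the 10 genes passed an adjusted p of 0.05 in limma, while 0.0262% of all genes tested did (3 of 11431), and a count-based fit of the recovered fragments with voom weights also gave 0. At an unadjusted p under 0.05, 5 of the 10 passed, 3 higher and 2 lower in the MI mice, against a background of 39.3% of all genes (29.5% higher and 9.85% lower). Median log-ratio scaling moved that background to 19% higher and 19.6% lower, and the counts of the gene lists below are set against the unscaled shares. The higher genes were Angptl4, Plin2 and Lipe, and the lower genes were Lpl and Plin5. The MI and sham values did not overlap for 4 of the 10, namely Angptl4 and Lipe above and Lmf1 and Plin5 below, where 25.1% of all genes did not overlap (16.1% above and 9% below). Without MI replicate 2, 8 of the 10 passed the adjusted threshold, 3 higher and 5 lower, and so did 71.7% of all genes (57% higher and 14.7% lower). Weighting the libraries by their fit in limma, which left nearly all weight of the MI mice on replicate 3, gave 9 of the 10, against 87.1% of all genes. The median log2 fold change was -0.14 over the 10 genes and 0.21 over all genes tested, and without MI replicate 2 it was -0.28 and 0.33. Rescaling moved that overall median to 0.42 (TPM), 0.11 (without mitochondrial genes) or 0.0036 (median log-ratio). Over these scalings the log2 differences ran from 0.20 to 0.66 for Lipe, 0.33 to 0.80 for Plin2, -0.70 to -0.23 for Cd36 and -0.74 to -0.30 for Vldlr. Angptl4 ran from 1.76 to 2.54, Lpl from -0.99 to -0.52 and Plin5 from -1.05 to -0.61. Gpihbp1 ran from -0.40 to 0.049, Lmf1 from -0.25 to 0.039 and Pnpla2 from -0.40 to 0.058, all 3 lowest under median log-ratio scaling and above 0 with TPM.

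**Figure D1:**
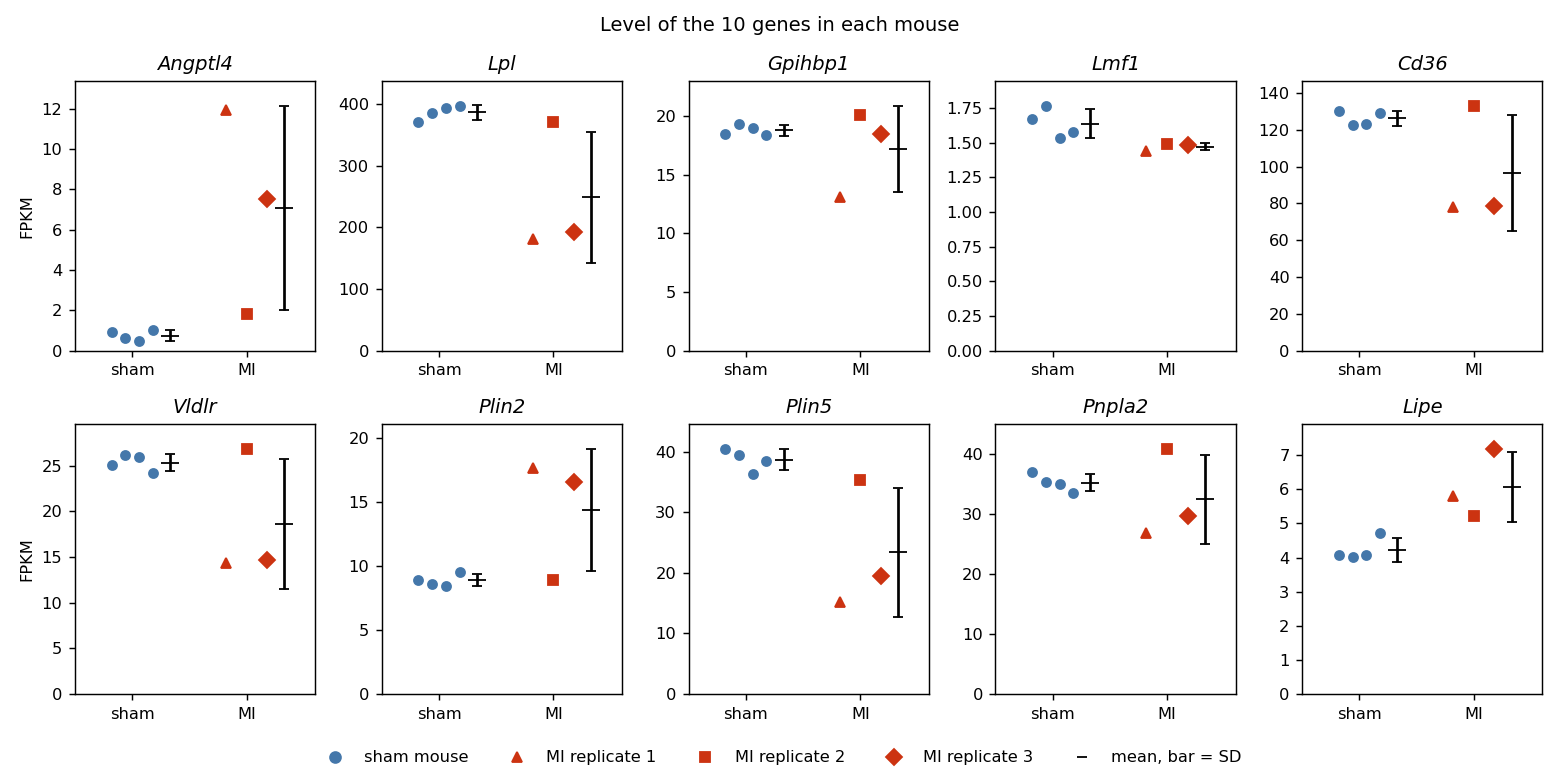
FPKM of each of the 10 genes on the vertical axis, by group on the horizontal axis, with 1 point per mouse (4 sham-operated, 3 MI) and the mean with its SD beside each group. MI replicate 2 lies near the sham-operated mice for Lpl, Cd36, Vldlr and Plin2, while every MI mouse lies above every sham-operated mouse for Angptl4 and Lipe.

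Angptl4, the secreted inhibitor of the enzyme (chr17:33773750-33781830, minus strand), was the least abundant of the 10 genes in the sham-operated mice. Its FPKM was 0.905, 0.607, 0.467 and 1.03 in sham replicates 1 to 4 and 11.9, 1.83 and 7.52 in MI replicates 1 to 3. Every MI mouse lay above every sham-operated mouse, MI replicate 2 by the smallest margin. The marker sums of macrophages (1347, 251 and 1156) and fibroblasts (2662, 282 and 2093) took the same order over MI replicates 1 to 3, with that of macrophages inside the sham range in MI replicate 2, and their part in the Angptl4 values was not tested. The mean was 0.751 ± 0.258 (SD, n = 4) against 7.09 ± 5.06 (SD, n = 3), and these values rested on 60 to 112 fragments in the sham-operated mice and 227 to 1420 in the MI mice. On the log2(FPKM + 1) scale, which understates the change of so low a gene, the difference was 1.97 (SE 0.47, 95% interval 0.87 to 3.06), with an adjusted p of 0.108 in limma. The exact permutation p was 0.0571, the smallest that 3 against 4 mice allow. Without MI replicate 2 the difference was 2.60. Only 1 sham-operated mouse reached 1 FPKM, so the gene met the filter on low values through the MI mice, where it was high, and no support is drawn from its having passed. On this scale the size of the change ranked 107 among the 11431 genes tested, the set that the gene entered through the MI mice. The rank is a description only.

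Lpl (chr8:68880491-68907448, plus strand), the enzyme itself, was the most abundant of the 10 genes in every mouse. Its FPKM was 370, 386, 393 and 398 in the sham-operated mice and 182, 371 and 193 in the MI mice. MI replicate 2 fell inside the sham range, and the other 2 MI mice were below it. The mean was 387 ± 12 (SD, n = 4) in the sham-operated and 249 ± 106 (SD, n = 3) in the MI mice, a log2 difference of -0.71 (SE 0.25, 95% interval -1.3 to -0.13) with an adjusted p of 0.109 in limma and an exact permutation p of 0.114. Without MI replicate 2 the log2 difference was -1.04. Set against the summed cardiomyocyte markers, Lpl stood at 21.3 ± 1.21 per 1000 (SD, n = 4) in the sham-operated mice and at 16.4, 21.7 and 16.0 in the MI mice, and the groups overlapped (exact permutation p = 0.229).

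Gpihbp1 (chr15:75596628-75599481, plus strand), the endothelial anchor of the enzyme, had FPKM values of 18.4, 19.3, 19.0 and 18.3 in the sham-operated mice and 13.1, 20.1 and 18.4 in the MI mice. MI replicate 1 was below the sham range, MI replicate 2 was above it and MI replicate 3 was inside it. The log2 difference was -0.14 (SE 0.15, 95% interval -0.48 to 0.20), with an adjusted p of 0.46 in limma. It was -0.26 without MI replicate 2, and -0.40 under median log-ratio scaling, and the direction turned to 0.049 after rescaling to TPM and to 0.034 without MI replicate 1. The summed level of 10 endothelial markers was 166 to 190 in the sham-operated mice and 220, 160 and 236 in the MI mice. Per 1000 of that sum Gpihbp1 stood at 107 ± 6.76 (SD, n = 4) in the sham-operated mice and at 59.5, 126 and 78.2 in the MI mice, lower in MI replicates 1 and 3 and higher in replicate 2 than in any sham-operated mouse (exact permutation p = 0.286).

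Lmf1 (chr17:25579085-25662826, plus strand), the maturation factor of the enzyme, was low in every mouse. Its FPKM was 1.67, 1.77, 1.54 and 1.58 in the sham-operated mice and 1.44, 1.49 and 1.49 in the MI mice. Every MI mouse was below every sham-operated mouse, and the gap was small beside the spread of the sham-operated mice. Lmf1 differed by -0.093 on the log2 scale (SE 0.08) with an adjusted p of 0.370 in limma and an exact permutation p of 0.0571, the values rested on 492 to 600 fragments. The difference was -0.097 without MI replicate 2 and -0.25 (SE 0.09) under median log-ratio scaling, and rescaling to TPM turned it to 0.039.

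The ratios of 3 gene pairs within each mouse were compared on the log2(FPKM + 1) scale, where the added 1 keeps the ratio of a gene as low as Angptl4 from being free of library scaling. The log2 ratio of Angptl4 to Lpl was -7.61, -7.91, -8.07 and -7.62 in the sham-operated mice and -3.82, -7.04 and -4.51 in the MI mice. The inhibitor was thus closer to the enzyme in every MI mouse than in any sham-operated mouse, with a difference of 2.68, and of 3.49 with a pseudocount of 0.1. Angptl4 alone already lay above the sham range in every MI mouse, and Lpl in none. The separation of this ratio is therefore no support apart from that of Angptl4. The log2 ratio of Lpl to Gpihbp1 was 4.26, 4.25, 4.30 and 4.37 in the sham-operated mice and 3.70, 4.14 and 3.32 in the MI mice. Again the groups did not overlap, and the difference was -0.57. For each of the 3 ratios, that of Plin2 to Plin5 described with the perilipins included, the exact two-sided permutation p was 0.0571, the smallest possible, and it was 0.0571 after Benjamini-Hochberg adjustment over the 3. Without MI replicate 2 the differences were 3.64 for Angptl4 to Lpl, -0.78 for Lpl to Gpihbp1 and 2.00 for Plin2 to Plin5.

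**Figure D2:**
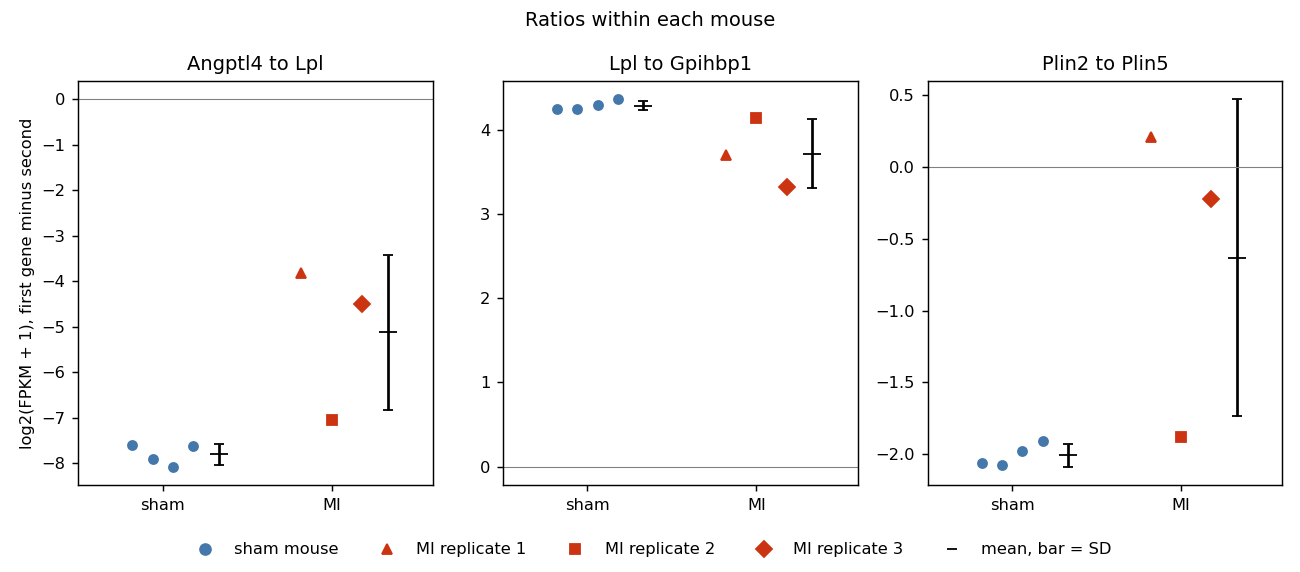
Log2 ratio of the first gene to the second within each mouse, computed on log2(FPKM + 1), for the 3 pairs of genes, with 1 point per mouse and the mean with its SD beside each group. The MI mice lie above the sham-operated mice for Angptl4 to Lpl and Plin2 to Plin5 and below them for Lpl to Gpihbp1, with MI replicate 2 nearest to the sham-operated mice in all 3.

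Both uptake genes followed the pattern of Lpl across the mice. Cd36 (chr5:17781690-17888801, minus strand) encodes the main fatty acid translocase of heart muscle and capillary endothelium. Its FPKM was 130, 122, 123 and 129 in the sham-operated mice and 78.3, 133 and 78.8 in the MI mice. MI replicates 1 and 3 were well below the sham range and MI replicate 2 was just above it. Cd36 differed by -0.43 on the log2 scale (SE 0.20) with an adjusted p of 0.142 in limma, and it was -0.68 without MI replicate 2.

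Vldlr (chr19:27216484-27254231, plus strand) encodes the receptor that binds triglyceride-rich lipoproteins at the cell surface. Its FPKM was 25, 26.2, 25.9 and 24.2 in the sham-operated mice and 14.4, 26.9 and 14.7 in the MI mice. As for Cd36, MI replicate 2 lay just above the sham range and the other 2 MI mice lay below it. Vldlr differed by -0.48 on the log2 scale (SE 0.21) with an adjusted p of 0.131 in limma and -0.76 without MI replicate 2. Set against the summed cardiomyocyte markers, the groups overlapped for both genes (exact permutation p = 0.686 for each). Cd36 then stood at 6.95 ± 0.192 per 1000 in the sham-operated mice (SD, n = 4) and at 7.06, 7.78 and 6.52 in the MI mice. Per 1000 of the endothelial marker sum it stood at 719 ± 40.2 (SD, n = 4) and at 356, 832 and 334, lower in MI replicates 1 and 3 and higher in replicate 2 than in any sham-operated mouse (exact permutation p = 0.286).

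The droplet coat genes Plin2 and Plin5 differed in opposite directions, and neither passed the adjusted threshold. Plin2 (chr4:86648386-86670060, minus strand) encodes the widely expressed perilipin that coats droplets as lipid accumulates. Its FPKM was 8.94, 8.60, 8.47 and 9.54 in the sham-operated mice and 17.7, 8.89 and 16.6 in the MI mice. MI replicate 2 was inside the sham range, and the other MI mice were above it. Plin2 differed by 0.58 on the log2 scale (SE 0.22) with an adjusted p of 0.112 in limma and an exact permutation p of 0.171, and it was 0.88 without MI replicate 2. Per 1000 of the cardiomyocyte marker sum it stood at 0.490 ± 0.0219 (SD, n = 4) in the sham-operated mice and at 1.59, 0.519 and 1.38 in the MI mice. The groups overlapped (exact permutation p = 0.114). The marker sums of macrophages (1347, 251 and 1156) and fibroblasts (2662, 282 and 2093) took the same order over MI replicates 1 to 3. Their part in the Plin2 values was not tested.

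Plin5 (chr17:56111601-56117596, minus strand) encodes the perilipin of oxidative tissues, which ties droplets to mitochondria. Its FPKM was 40.5, 39.5, 36.4 and 38.6 in the sham-operated mice and 15.2, 35.4 and 19.6 in the MI mice. All MI mice were below all sham-operated mice, MI replicate 2 only narrowly. The log2 difference was -0.79 (SE 0.25, 95% interval -1.39 to -0.19) with an adjusted p of 0.108 in limma and an exact permutation p of 0.0571, and it was -1.12 without MI replicate 2. Plin5 stood at 2.13 ± 0.0353 per 1000 of the cardiomyocyte marker sum in the sham-operated mice (SD, n = 4) and at 1.37, 2.07 and 1.62 in the MI mice. Against that sum it was lower in every MI mouse (exact permutation p = 0.0571). The sum is weighted toward its most abundant markers. Single markers differed by -0.93 (Tnni3) to -0.19 (Actc1) on the log2 scale, a range that holds the -0.79 of Plin5. Ratios to single markers were not tested.

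The log2 ratio of Plin2 to Plin5 was -2.06, -2.08, -1.98 and -1.91 in the sham-operated mice and 0.21, -1.88 and -0.22 in the MI mice. In MI replicate 1 the level of Plin2 exceeded that of Plin5, and the mean difference was 1.38. Of the summed FPKM of the 5 perilipin genes, Plin2 made up 7.55% ± 0.415 in the sham-operated mice (SD, n = 4) and 21.3%, 7.33% and 16.9% in the MI mice. Plin5 made up 32.9% ± 1.78 and 18.3%, 29.2% and 19.8%, lower in every MI mouse. Plin3, the cytosolic perilipin, kept a share of 38.2% ± 1.69 in the sham-operated mice and of 39.7%, 36.6% and 37.0% in the MI mice. Plin1, the perilipin of fat cells, held 1.17%, 0% and 4.37% of the sum in MI replicates 1 to 3.

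**Figure D3:**
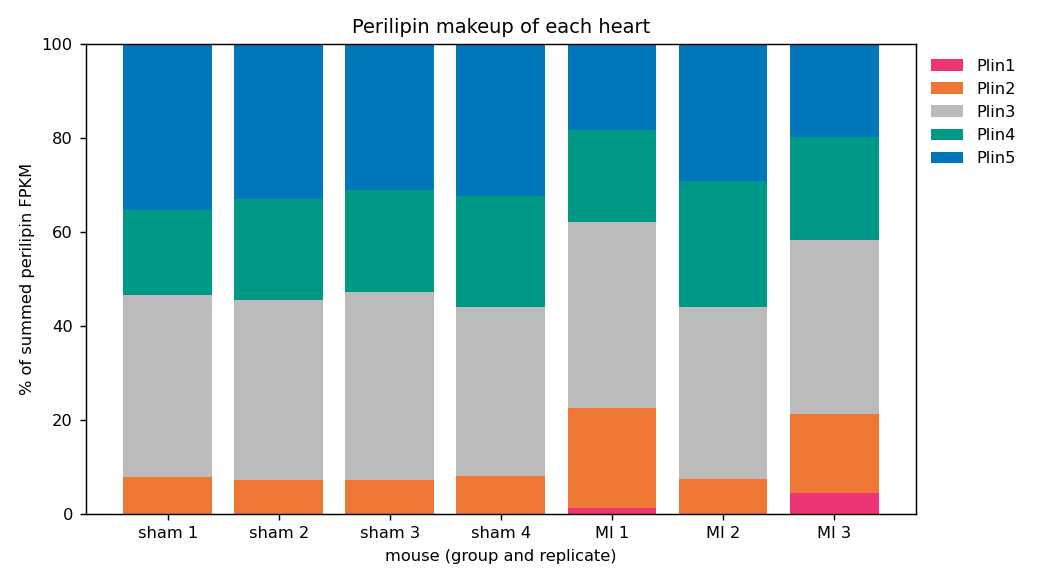
Share of each perilipin gene in the summed FPKM of Plin1 to Plin5, in percent on the vertical axis, for each of the 7 mice on the horizontal axis. Plin2 holds 21.3% and 16.9% of the sum in MI replicates 1 and 3 and 7.33% in MI replicate 2, near the 7.55% mean of the sham-operated mice.

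The start regions of 3 genes of the set are shown because Plin2 and Lipe were higher and Plin5 lower in the MI mice, and because their windows hold short elements read by hypoxia-inducible factors or nuclear receptors. Each is a RefSeq window on GRCm38.p6 of 250 bases before and 50 after an annotated start, printed along the gene's strand, and 7 of the 10 genes had such a window, with none for Angptl4, Lpl and Gpihbp1. Capitals mark ACGTG or GCGTG, the core of the hypoxia response element, and AGGTCA, the nuclear receptor half-site, on either strand.
Plin2, chr4:86670010-86670309, minus strand: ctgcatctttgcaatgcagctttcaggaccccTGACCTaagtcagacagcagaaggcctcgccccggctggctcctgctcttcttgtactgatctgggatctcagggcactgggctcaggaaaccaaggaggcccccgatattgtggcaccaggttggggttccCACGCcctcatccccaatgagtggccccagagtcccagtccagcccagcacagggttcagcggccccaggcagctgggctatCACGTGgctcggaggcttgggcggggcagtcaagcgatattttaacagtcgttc
Plin5, the more upstream of its starts, chr17:56117499-56117798, minus strand: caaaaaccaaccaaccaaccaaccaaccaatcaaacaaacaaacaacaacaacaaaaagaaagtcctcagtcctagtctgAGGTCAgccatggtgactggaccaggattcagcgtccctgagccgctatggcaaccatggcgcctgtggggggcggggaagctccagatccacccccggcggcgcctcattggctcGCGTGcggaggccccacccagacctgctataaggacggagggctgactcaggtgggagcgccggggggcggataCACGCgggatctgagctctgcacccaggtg
Lipe, the more upstream of its starts, chr7:25395938-25396237, minus strand: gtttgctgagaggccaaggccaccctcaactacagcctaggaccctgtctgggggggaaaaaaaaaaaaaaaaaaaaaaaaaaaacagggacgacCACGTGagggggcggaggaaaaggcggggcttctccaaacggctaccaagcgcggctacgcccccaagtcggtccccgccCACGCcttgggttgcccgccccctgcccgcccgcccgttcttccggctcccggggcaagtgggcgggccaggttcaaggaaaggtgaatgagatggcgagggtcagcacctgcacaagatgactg
In the windows of Plin2 and Lipe the capitals spell CACGTG, in which ACGTG reads on both strands, and it begins 4 bases before the start in Plin2 and 155 bases before it in Lipe. ACGTG was found in 2 of the 10 windows of the 7 genes and in 19.6% of all 32851 windows, and GCGTG in 5 of the 10 and in 32.4%. Both windows of Plin5 are counted there, although they overlap and share a CACGC site. The last 30 bases of the printed Plin5 window matched no transcript of the gene in GENCODE M21, while those of the other did. AGGTCA was found in 4 of the 10 windows, belonging to Cd36, Plin2 and Plin5, and in 16.3% of all windows. The DR1 element, a direct repeat of AGGTCA with 1 base between the copies, was in 0 of the 10 and in 0.0396% of all windows. The window of Lmf1, whose log2 difference was -0.093, also held GCGTG, beginning 95, 88, 62 and 20 bases before its start, and is not printed. The other window of Lipe held none of the marked elements. The printed windows were picked by change and by match, so a link between change and match was not tested. A match of letters describes the window and not a bound site, and binding was not measured here.

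The difference between the intracellular lipases was not tested. Pnpla2 (chr7:141455198-141460743, plus strand) encodes adipose triglyceride lipase, which takes the first fatty acid from a stored triglyceride. Its FPKM was 36.9, 35.4, 34.9 and 33.5 in the sham-operated mice and 26.7, 40.8 and 29.6 in the MI mice. MI replicate 2 was above the sham range and the other MI mice were below it. The log2 difference was -0.14 (SE 0.15) with an adjusted p of 0.481 in limma, -0.31 without MI replicate 2, -0.40 under median log-ratio scaling and 0.058 after rescaling to TPM. Against the cardiomyocyte marker sum the order turned, with 1.94 ± 0.0845 per 1000 in the sham-operated mice (SD, n = 4) and 2.41, 2.39 and 2.45 in the MI mice, all 3 of them higher (exact permutation p = 0.0571). Single markers of that sum differed by -0.93 (Tnni3) to -0.19 (Actc1) on the log2 scale, the latter near the -0.14 of Pnpla2. Ratios to single markers were not tested.

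Lipe (chr7:25379527-25398710, minus strand) encodes hormone-sensitive lipase, which acts on diglycerides. Its FPKM was 4.08, 4.00, 4.06 and 4.73 in the sham-operated mice and 5.79, 5.22 and 7.19 in the MI mice. In unscaled FPKM every MI mouse, replicate 2 included, was above every sham-operated mouse. Lipe differed by 0.43 on the log2 scale (SE 0.12) with an adjusted p of 0.108 in limma and an exact permutation p of 0.0571, and it was 0.52 without MI replicate 2. Under median log-ratio scaling it was 0.20 (SE 0.11). That scaling divides MI replicate 1 by 1.28 and sham replicate 4 by 0.908, which places Lipe of the former below the latter. In the annotation Lipe shares 918 exon bases with 4732471J01Rik on the opposite strand, whose own FPKM was at most 0.189 in any mouse.

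Lipe is also abundant in fat cells, and the adipocyte markers moved with it in part. The summed FPKM of 10 such markers was 0.778 to 1.56 in the sham-operated mice and 95.2, 0.639 and 291 in MI replicates 1 to 3. Of these, Cfd was at 78.1, 0.175 and 231 and Adipoq at 8.32, 0 and 26.8 in the MI mice, and 3 of the 10 markers were listed at 0 in every sham-operated mouse. In MI replicate 2 the marker sum was below that of every sham-operated mouse, 5 of the 10 were listed at 0, and Lipe was above the sham range. The part of fat cells in the Lipe values was not tested.

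**Figure D4:**
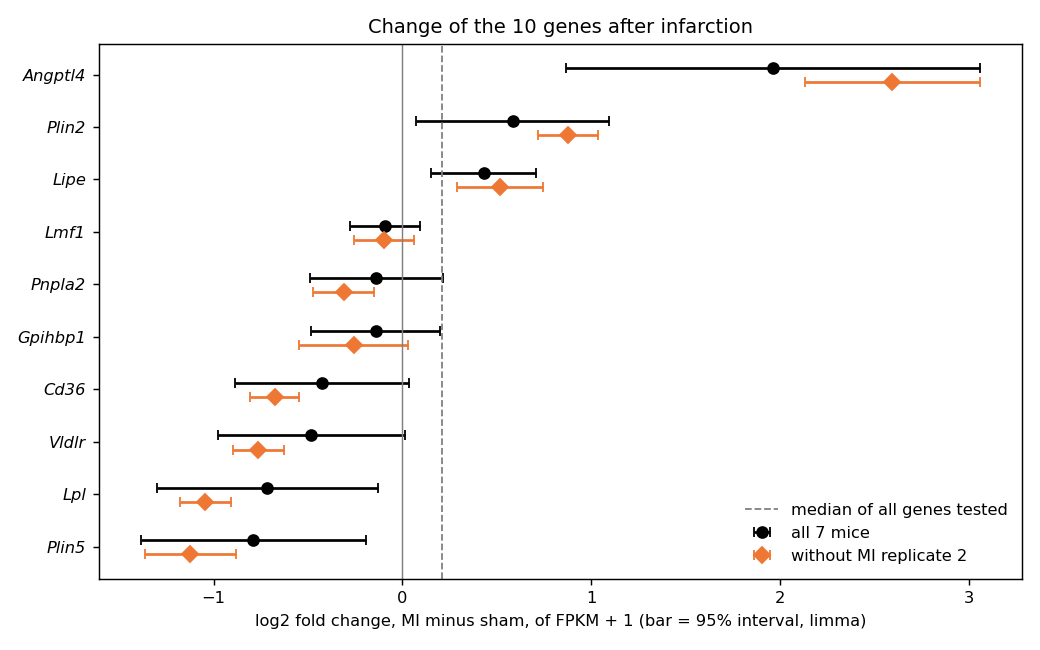
Log2 fold change of FPKM + 1, MI minus sham, on the horizontal axis for the 10 genes, with 95% intervals from limma, for all 7 mice (circles) and without MI replicate 2 (diamonds), and a dashed line at the median of all genes tested, 0.21. Angptl4 lies farthest to the right at 1.97 and Plin5 farthest to the left at -0.79, and the intervals of most genes narrow without MI replicate 2.

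In the sham-operated mice the levels per length ran, from high to low, Lpl, Cd36, Plin5, Pnpla2, Vldlr, Gpihbp1, Plin2, Lipe, Lmf1 and Angptl4. All neighbours in this order were separated by gaps in their ranges except Plin5 and Pnpla2. In the MI mice Lpl and Cd36 stayed at the top and Lmf1 took the last place, with Angptl4 between Plin2 and Lipe. Every pair of neighbours from Pnpla2 to Lipe overlapped there.

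Other genes known to act on lipoprotein lipase or its lipoproteins were mostly low in the heart, and 7 of 16 passed the filter on low values. Of these, 4 were higher and 0 lower at an unadjusted p under 0.05, 4 lay above the sham range in all MI mice, and 0 passed the adjusted threshold. Over all genes the shares were 29.5% higher, 9.85% lower and 16.1% above the sham range. The median log2 fold change was 0.36, against 0.21 over all genes, and 0.56 against 0.33 without MI replicate 2. It was 0.086 under median log-ratio scaling and 0.56 after rescaling to TPM. Apoe, the apolipoprotein that lipoprotein receptors bind and that macrophages secrete, was at 20.1 to 29.3 FPKM in the sham-operated mice and at 268, 30.8 and 199 in the MI mice, a log2 difference of 2.21 (SE 0.68). It moved with the macrophage markers, whose sum was 1347, 251 and 1156 in the same mice, and their part in it was not tested. Sdc1, a heparan sulfate proteoglycan that binds lipoproteins, was at 0.917 to 1.3 and at 10.3, 1.3 and 6.53, a log2 difference of 1.47 (SE 0.48). Furin and Pcsk6, proprotein convertases that cleave the lipase and its inhibitors, were higher by 0.26 and 0.20 on the log2 scale, beside 0.21 for the median gene. Under median log-ratio scaling they stood at 0.013 and -0.049, and the unadjusted p of Pcsk6 in limma was 0.089. Apoc2, the activator of the enzyme, was listed at 0 in all sham-operated mice and at 1.13, 0.181 and 1.11 FPKM in the MI mice, from 30, 5 and 32 fragments. Apoc2 shares 646 exon bases with Gm44805 on the same strand, so its value is uncertain. Angptl8, a relative of Angptl4 that acts on the enzyme in other tissues, stayed at or under 0.637 FPKM in every mouse and was not tested.

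Among 12 other lipid uptake genes 9 were tested, 3 were higher and 2 lower at an unadjusted p under 0.05 (29.5% and 9.85% of all genes), and 0 passed the adjusted threshold. Their median log2 fold change was 0.39, against 0.21 over all genes, and 0.60 against 0.33 without MI replicate 2. It was 0.16 under median log-ratio scaling and 0.62 after rescaling to TPM. Lrp1, a large endocytic receptor for remnant lipoproteins, was at 8.33 to 9.11 FPKM in the sham-operated mice and at 34.0, 11 and 31.7 in the MI mice, a log2 difference of 1.31 (SE 0.35). The marker sums of macrophages (1347, 251 and 1156) and fibroblasts (2662, 282 and 2093) took the same order over the MI mice, and their part in it was not tested. Fabp3, the form of heart muscle, was at 2631 to 3105 FPKM in the sham-operated mice and at 1422, 2566 and 1870 in the MI mice, and Fabp4, the form of endothelium and fat, at 65.6 to 76.3 and at 89.9, 84.8 and 131. In FPKM the groups did not overlap for either, with log2 differences of -0.61 (SE 0.23) and 0.49 (SE 0.17). Under median log-ratio scaling these were -0.88 and 0.22. That scaling divides MI replicate 1 by 1.28 and the sham-operated mice by 0.908 to 0.933, which places Fabp4 of MI replicate 1 below theirs. In the same MI mice the cardiomyocyte marker sum was 11093, 17110 and 12082 and the adipocyte marker sum 95.2, 0.639 and 291. The part of heart muscle cells in the Fabp3 values and of fat cells in the Fabp4 values was not tested. Fabp5, the epidermal form, was 0.61 higher and Slc27a1, a fatty acid transport protein, 0.20 lower on the log2 scale, and both overlapped between groups. After rescaling to TPM Slc27a1 stood at -0.014.

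Of 18 other droplet genes 15 were tested, 1 was higher and 5 lower at an unadjusted p under 0.05 (29.5% and 9.85% of all genes), and 0 passed the adjusted threshold. Their median log2 fold change was -0.093, against 0.21 over all genes, and -0.016 against 0.33 without MI replicate 2. It was -0.35 under median log-ratio scaling, -0.22 without the mitochondrial genes and 0.10 after rescaling to TPM, where that of all genes was 0.42. Fitm1 and Fitm2, which help droplets bud from the endoplasmic reticulum, were lower by 1.02 and 0.88 on the log2 scale in the MI mice. The cardiomyocyte markers were lower too, with a median log2 fold change of -0.64 and sums of 11093, 17110 and 12082 in MI replicates 1 to 3. Their part in the lower droplet genes was not tested. G0s2, the inhibitor of adipose triglyceride lipase, was at 55.1, 40.3, 34.3 and 38.0 FPKM in the sham-operated mice and at 22.8, 23.3 and 30.4 in the MI mice. It was lower in all MI mice, replicate 2 included, by 0.69 on the log2 scale (SE 0.18). Abhd5, the coactivator of the same lipase, differed by 0.0052 on the log2 scale (SE 0.09), and Mgll, the monoglyceride lipase that completes the breakdown, by 0.013 (SE 0.10), and both turned to -0.23 and -0.25 under median log-ratio scaling. Hilpda, a hypoxia-induced inhibitor of adipose triglyceride lipase, was at 0.916 to 1.6 and at 4.37, 1.56 and 3.87, a log2 difference of 0.83 (SE 0.26), and its groups overlapped. For triglyceride synthesis, Dgat2 was at 109 to 114 FPKM in the sham-operated mice and at 37.6, 110 and 50.6 in the MI mice. Dgat1 differed by 0.19 (SE 0.11), a direction that turned to -0.0057 under median log-ratio scaling, and Gpat3, which adds the acyl chain to glycerol phosphate, by -0.36 (SE 0.11) on the log2 scale. Plin3 and Plin4 differed by -0.25 and -0.14, both overlapped between groups, and Plin4 turned to 0.053 after rescaling to TPM.

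The PPAR receptors and their fatty acid oxidation targets, among which Angptl4 is also counted in textbooks, were all tested, 16 of 16. At an unadjusted p under 0.05, 0 were higher and 9 lower, 7 were below the sham range in all MI mice, and 0 passed the adjusted threshold. Over all genes 9.85% were lower and 9% below the sham range. Their median log2 fold change was -0.59, against 0.21 over all genes, and -0.88 against 0.33 without MI replicate 2. It was -0.83 under median log-ratio scaling and -0.43 after rescaling to TPM. Ppara, the receptor of oxidative muscle, was at 5.77 to 7.47 FPKM in the sham-operated mice and at 2.69, 5.96 and 2.81 in the MI mice. Acadm, the medium-chain acyl-CoA dehydrogenase, was at 149 to 171 and at 62.7, 146 and 71.5, a log2 difference of -0.88 (SE 0.28). The thioesterases Acot1 and Acot2 were lower by 1.00 and 0.88, with reads that near-identical neighbours could share, the carnitine carrier Slc25a20 by 0.69 and Mlycd, which removes malonyl-CoA, by 0.62. Pdk4, the kinase that shuts off pyruvate oxidation, was at 40.4 to 84.8 in the sham-operated mice and at 61.9, 185 and 87.8 in the MI mice, highest in MI replicate 2. The cardiomyocyte markers moved with this list, with a median log2 fold change of -0.64, and -0.95 without MI replicate 2, and 8 of 12 lower at an unadjusted p under 0.05. Their part in it was not tested.

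Of 13 hypoxia targets other than Angptl4 12 were tested, 4 were higher and 2 lower at an unadjusted p under 0.05, against 29.5% and 9.85% of all genes, and 0 passed the adjusted threshold. Their median log2 fold change was 0.26, against 0.21 over all genes, and 0.38 against 0.33 without MI replicate 2. It was 0.0092 under median log-ratio scaling and 0.48 after rescaling to TPM. Ndrg1 was at 4.10 to 4.78 FPKM in the sham-operated mice and at 10.1, 6.05 and 9.30 in the MI mice, and Bnip3, a mitophagy receptor, at 33.3 to 37.7 and at 46.8, 41.6 and 47.0. Both were above the sham range in every MI mouse, with log2 differences of 0.77 (SE 0.16) and 0.37 (SE 0.10). Vegfa, the endothelial growth factor, was at 31.5 to 33.3 and at 26.5, 25.3 and 27.6, below the sham range in every MI mouse, with a log2 difference of -0.27 (SE 0.09). Bnip3 stood at 0.10 under median log-ratio scaling and Vegfa at -0.079 after rescaling to TPM.

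**Figure D5:**
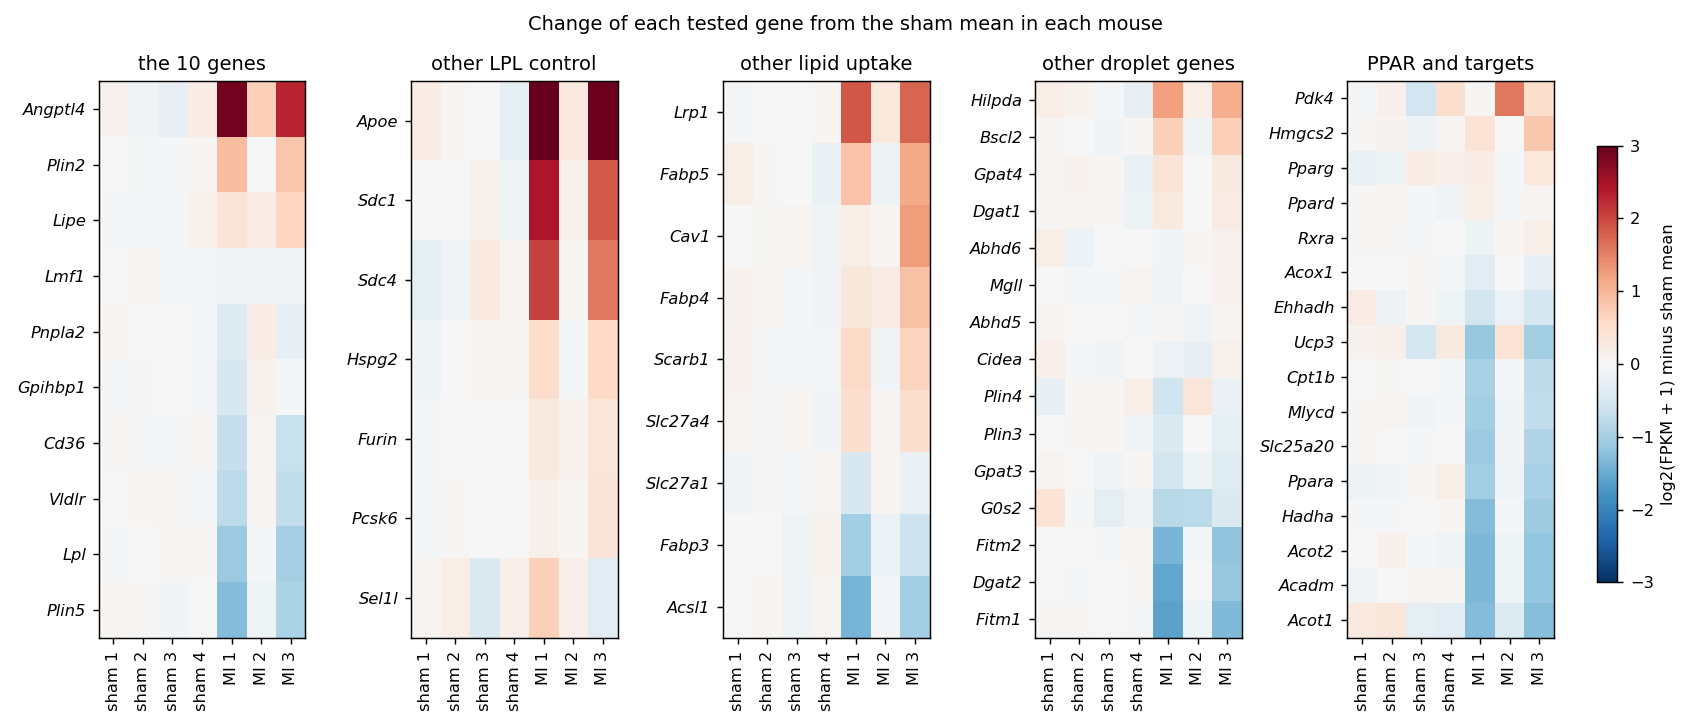
Difference of log2(FPKM + 1) from the mean of the sham-operated mice, as a colour from -3 to 3, for the tested genes (rows) of 5 groups of genes in each of the 7 mice (columns). MI replicates 1 and 3 show the same colours over most rows and MI replicate 2 is pale, with Angptl4, Lipe and Pdk4 among the genes it shows above the sham mean and G0s2 among those below.

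By the root mean square difference of the changes from the sham mean over the 7 mice, the genes most like Angptl4 were C3ar1 (0.109), C1ra (0.155), Pdpn (0.158), Cd300c2 (0.164) and Serping1 (0.173). C3ar1 and C1ra encode a complement receptor and a complement protease, and Serping1 the inhibitor of that pathway. Those most like Lpl were Pygm (0.0444), Gm13910 (0.0454), Nipsnap2 (0.0458), Dbt (0.0474) and Vwa8 (0.0486), of which Pygm is the glycogen phosphorylase of muscle. Among the other 9 genes of the set, Plin5 was nearest to Lpl, at rank 110 of all genes (0.109), followed by Vldlr at rank 287 and Cd36 at rank 439. Plin2 was nearest to Angptl4, at rank 1657 (0.971). These are descriptions of genes measured in the same 7 libraries.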

How the data were processed

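Bulk RNA sequencing of 7 mouse hearts (4 sham-operated, 3 MI) was analysed. The authors deposited FPKM values for 56980 genes, and the submitters' processing notes name CASAVA 1.8, HISAT2, SAMtools 1.3.1, edgeR and the build mm10. The annotation, the counting program and its strand setting are not given in the sources used here, and the implied gene lengths differ from GENCODE M21 (5468 against 3541 bases for Angptl4), which was used for symbols (52073 matched) and positions on GRCm38. Whole fragments were recovered from the FPKM steps, with lengths of 20 to 120000 bases searched and values within 0.05 of a whole number accepted, for 30502 of 30504 genes above 0, and gave the depths. The SD covers counting error and the difference between mice together. Samples were grouped by their labels.

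Values were analysed as log2(FPKM + 1). Genes reaching 1 FPKM in 3 or more mice entered a fit of MI against sham in limma 3.58.1 (trend, R 4.3.3), with Benjamini-Hochberg adjustment over 11431 genes. Ratios were tested by exact permutation over 35 splits. Scripts were tested on simulated data. The genes of the set, the other lists and the tests were chosen with earlier results of these data known. Genes outside the set were named if their groups did not overlap (up to 5 with the largest change per list) or from a list of genes central to the pathway. Some of these are not reported here. Markers of each cell type were summed. Alternatives were a pseudocount of 0.1, other filters, scalings and weights, a replicate block and each mouse left out. Promoter windows came from RefSeq.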

Additional observations from a re-analysis of the deposited data

Results flagged for a closer look

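The FPKM of Lipe in the sham-operated mice was singled out because sham replicate 4 stood apart from the other 3, at 4.73 against 4.00 to 4.08, with a gap of 0.890 of the group's whole range, more than Dixon's limit for 4 values. It still lay below all MI mice. Of 72 sets of sham values examined this was the only 1, and chance alone flags about 1 in 20.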

How the results depend on the processing

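With 0 of the 10 genes past the adjusted threshold in all 7 mice, leaving out 1 mouse gave 0 to 8, with 8 without MI replicate 2, and limma sample weights gave 9. At the unadjusted threshold the count of 5 became 2 to 8 with 1 mouse left out (3 without sham replicate 3, 3 without MI replicate 1, 8 without MI replicate 2 and 2 without MI replicate 3) and 9 with sample weights, which put nearly all of the weight of the MI mice on replicate 3. The cause was not tested. A replicate block gave 0 and 4 and moved the count of all genes at an unadjusted p under 0.05 from 4496 to 2332, but no label says that the numbers pair the animals, and correlations of deviations between same-numbered mice were 0.0739, -0.0163 and -0.0803. Directions turned for Gpihbp1 (0.049 with TPM and 0.034 without MI replicate 1, range -0.26 to 0.034 with 1 mouse left out), Lmf1 (0.039 with TPM) and Pnpla2 (0.058 with TPM). Of 170 alternatives for single genes, 149 kept the direction and side of the threshold, 17 passed the threshold that all 7 mice did not and 4 turned. Without MI replicate 2, an alternative chosen after seeing the data, the medians of the other gene lists moved to the values given with them, and the marker medians from 0.29 to 0.48 (endothelial), 1.51 to 2.2 (macrophage) and 2.23 to 3.06 (fibroblast). The share of genes at an unadjusted p under 0.05 that were higher was 75.0%, 88.1% with TPM and 49.2% with the median log-ratio. The ratios kept their direction throughout, from 2.03 to 3.64 (Angptl4 to Lpl), -0.78 to -0.37 (Lpl to Gpihbp1) and 0.96 to 2.00 (Plin2 to Plin5) with 1 mouse left out, and 2.74, -0.55 and 1.41 with the replicate block, where the smallest exact permutation p for 3 pairs is 0.25.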
